A study of Mus musculus with 36 samples.

Results

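The 10 genes studied here carry the integrated stress response, and their levels were followed across every group of the study: Atf4, Atf3, Ddit3, Trib3, Chac1, Sesn2, Ppp1r15a, Ddit4, Cebpb and Nupr1. They were chosen by gene symbol, 10 of the 46078 genes in the count tables, and all 10 had enough counts to be tested in both cell types. The samples were 36 RNA-seq libraries in 12 groups of 3. The cancer cells were RM-1-BM, a mouse prostate cancer line, transduced with an empty vector or with the F133V mutant of SPOP, the substrate-binding subunit of a cullin ubiquitin ligase. They were grown alone or in a transwell, 2 chambers parted by a porous membrane, with RAW264.7 mouse macrophages, and received DMSO (the solvent) or olaparib, an inhibitor of PARP enzymes. The 8 cancer-cell groups were therefore vector or F133V cells, alone or in coculture, each with DMSO or olaparib. The 4 macrophage groups were RAW264.7 cells, with no transgene of their own in the labels, grown opposite vector or F133V cells with DMSO or olaparib; no macrophages grown alone were analysed here. The titles of the macrophages grown opposite vector cells with olaparib name no partner, and their partner was taken from the group label. The labels give no dose or time, and do not say whether the F133V line is 1 clone or whether libraries with the same label stem from separately grown cells. The p-values therefore measure the spread between libraries, which may be technical. Fewer cells of a kind and less RNA per cell cannot be told apart in such bulk samples.

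The integrated stress response starts when one of 4 kinases (PERK, GCN2, HRI and PKR) phosphorylates the translation factor eIF2. Protein synthesis then slows, while the mRNA of ATF4 is translated more, and ATF4 turns on genes for amino acid supply, redox balance and, with CHOP (the protein of Ddit3), cell death. Several targets feed back on the pathway: Ppp1r15a encodes GADD34, which brings a phosphatase to eIF2, and Trib3 encodes a pseudokinase that restrains ATF4 and CHOP. PERK is also one of 3 sensors of unfolded protein in the endoplasmic reticulum, beside ATF6 and IRE1, whose product is the active form of XBP1. ATF4 itself is set largely by translation, so its mRNA level is not a readout of its protein.

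Promoter sequence is shown for the members in which a stress-response motif was found. All 10 members matched a RefSeq promoter (GRCm38.p6, 250 bases before to 50 after the RefSeq start site). The core of the element bound by C/EBP and ATF factors together, TGATGNAA on either strand, was present in 4 of the 10 members (Atf3, Chac1, Nupr1 and Trib3) and in 3.97% of all 32851 promoters. The cyclic AMP response element, TGACGTCA, was present in Ppp1r15a and in 1.79% of promoters. The endoplasmic reticulum stress element (ERSE) was found in 0 of the 10 windows and in 0.119% of all. No member held more than 1 of these motifs. Each sequence is given 5′ to 3′ on the strand of the gene, with the motif in capitals; in the first 4 the capitals read as the reverse complement of TGATGNAA.
Atf3: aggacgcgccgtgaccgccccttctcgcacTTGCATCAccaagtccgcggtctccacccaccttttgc
Chac1: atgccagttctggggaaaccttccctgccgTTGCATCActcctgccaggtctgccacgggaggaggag
Nupr1: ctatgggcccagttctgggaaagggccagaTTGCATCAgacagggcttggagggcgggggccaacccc
Trib3: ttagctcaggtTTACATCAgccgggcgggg
Ppp1r15a: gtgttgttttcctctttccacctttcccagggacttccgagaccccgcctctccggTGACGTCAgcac

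These stretches lie at chr1:191183406-191183473 (Atf3, minus strand), chr2:119351019-119351086 (Chac1, plus), chr7:126625543-126625610 (Nupr1, minus), chr2:152344028-152344057 (Trib3, minus) and chr7:45526269-45526336 (Ppp1r15a, minus). Counted from the RefSeq start site, the motif spans -110 to -103 in Atf3 and in Nupr1, -193 to -186 in Chac1, -12 to -5 in Ppp1r15a and 15 to 22, past the RefSeq start, in Trib3. The RefSeq start of Ppp1r15a is also the start of the annotated gene given below, but those of the other four are not. They lie inside the annotated gene for Atf3, Nupr1 and Chac1, so that the motifs of Atf3 and Nupr1 are within those genes. For Trib3 the RefSeq start and the motif lie before the annotated gene. Atf3, Chac1, Nupr1 and Trib3 thus hold the same 8-letter core, with the N read as C in Atf3, Chac1 and Nupr1 and as T in Trib3. A match of letters is a description and does not show a bound site.

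The cancer-cell libraries held 32063028 to 43062440 counts in genes (median 37771351) and the macrophage libraries 30292309 to 37340425 (median 35333491). The lowest count of any member in any library was 411 (Chac1) and the highest 32909 (Atf4). Levels are given as CPM, counts brought to a common library size, here scaled by TMM (the normalisation factor of edgeR) separately in each cell type. The 14 macrophage markers summed to 13.3 to 30.2 CPM in cancer-cell libraries and to 12400 to 14400 in macrophages, and Adgre1 was at 0 to 0.0253 CPM in vector cells alone with DMSO against 56.5 to 58.4 in macrophages opposite vector cells with DMSO. In that vector group Lyz2 was 3.38, 4.36 and 0.7 CPM, so results with this group are also given without replicates 1 and 2 where that changes them. In these macrophages Krt18 was at most 0.0655 and Fn1 at most 2.95 CPM, against 94.4 to 102 and 8000 to 8160 in the vector cells alone. Of the 13 cancer-cell markers, Vim went the other way, at 2550 to 2630 CPM in these macrophages and 1130 to 1150 in those cancer cells. Col1a1 (at most 0.241 CPM), Col1a2 (at most 0.259), Epcam (at most 0.434), Cdh1 (at most 0.0505) and Cdh2 (0) were at or near 0 in the vector cells alone with DMSO themselves. The 13 markers summed to 3810 to 12200 CPM in cancer cells and 1190 to 2630 in macrophages. Spop was at 122 to 127 CPM (unscaled) in vector and 103 to 106 in F133V cells alone with DMSO, so the transduced mutant is not seen as a higher count. Small structural RNAs took 56.7 to 69.4 CPM (here unscaled) in the 4 vector groups, 360 to 383 in F133V cells alone with DMSO, 395 to 422 in F133V cells in coculture with DMSO, 179 to 201 in F133V cells alone with olaparib and 96.9 to 102 in F133V cells in coculture with olaparib. The non-coding transcript Gm26917 took 0.199 to 0.201% of counts in vector cells and 3.76 to 3.91% in F133V cells, both alone with DMSO. In coculture it took 0.249 to 0.269% in vector cells with DMSO. In F133V cells in coculture it took 3.47 to 3.65% with DMSO and 0.48 to 0.493% with olaparib. The mitochondrial ribosomal RNA mt-Rnr2 was at 985 to 1160 CPM (unscaled) in vector cells alone with DMSO. In the F133V groups just named, in the same order, it was at 4090 to 4260, 4100 to 4460 and 1190 to 1240. All 3 signs were higher in F133V than in vector cells with DMSO, and in F133V cells they were lower with olaparib than with DMSO. In F133V cells alone with olaparib Gm26917 took 1.24 to 1.58% and mt-Rnr2 was at 2460 to 3160 CPM (unscaled). In vector cells alone with olaparib mt-Rnr2 was at 1090 to 1150 CPM (unscaled). The part of the 3 signs in the results below was not tested.

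Per kilobase of exon, Atf4 was the most abundant member in vector cells alone with DMSO, at 227 CPM per kb, followed by Ddit3 at 187. Ddit4 and Trib3 were each at 117 CPM per kb, Nupr1 at 66.4, Cebpb and Sesn2 each at 45.4, Ppp1r15a at 43.3, Chac1 at 33.2 and Atf3 at 20.8. In F133V cells in coculture with olaparib Ddit3 stood above Atf4, at 381 against 312 CPM per kb. Exons of 3 members overlap those of neighbours on the opposite strand: Ddit3 with Mars and Gm4189, Ppp1r15a with Tulp2, and Cebpb with Tmem189. How strand was treated in the counting is not known, so the counts of these members may be affected to an unknown degree. Mars, a methionyl-tRNA synthetase, was at 122 to 141 CPM in all 8 cancer-cell groups, and its fold changes ran from -0.14 to 0.16 on the log2 scale there. Gm4189 was at 0.727 to 2.41 CPM in these groups, far below Ddit3, and changed by 1.73 (F133V against vector cells in coculture with DMSO) and -1.05 (olaparib in F133V cells in coculture). Tmem189 was at 23 to 32.6 CPM in the cancer cells but at 135 to 242 in macrophages, above Cebpb, and changed there by -0.73 (F133V partner with DMSO) and 0.84 (olaparib opposite F133V cells). Whether these changes enter the counts of Ddit3 and Cebpb was not tested.

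**Figure D1:**
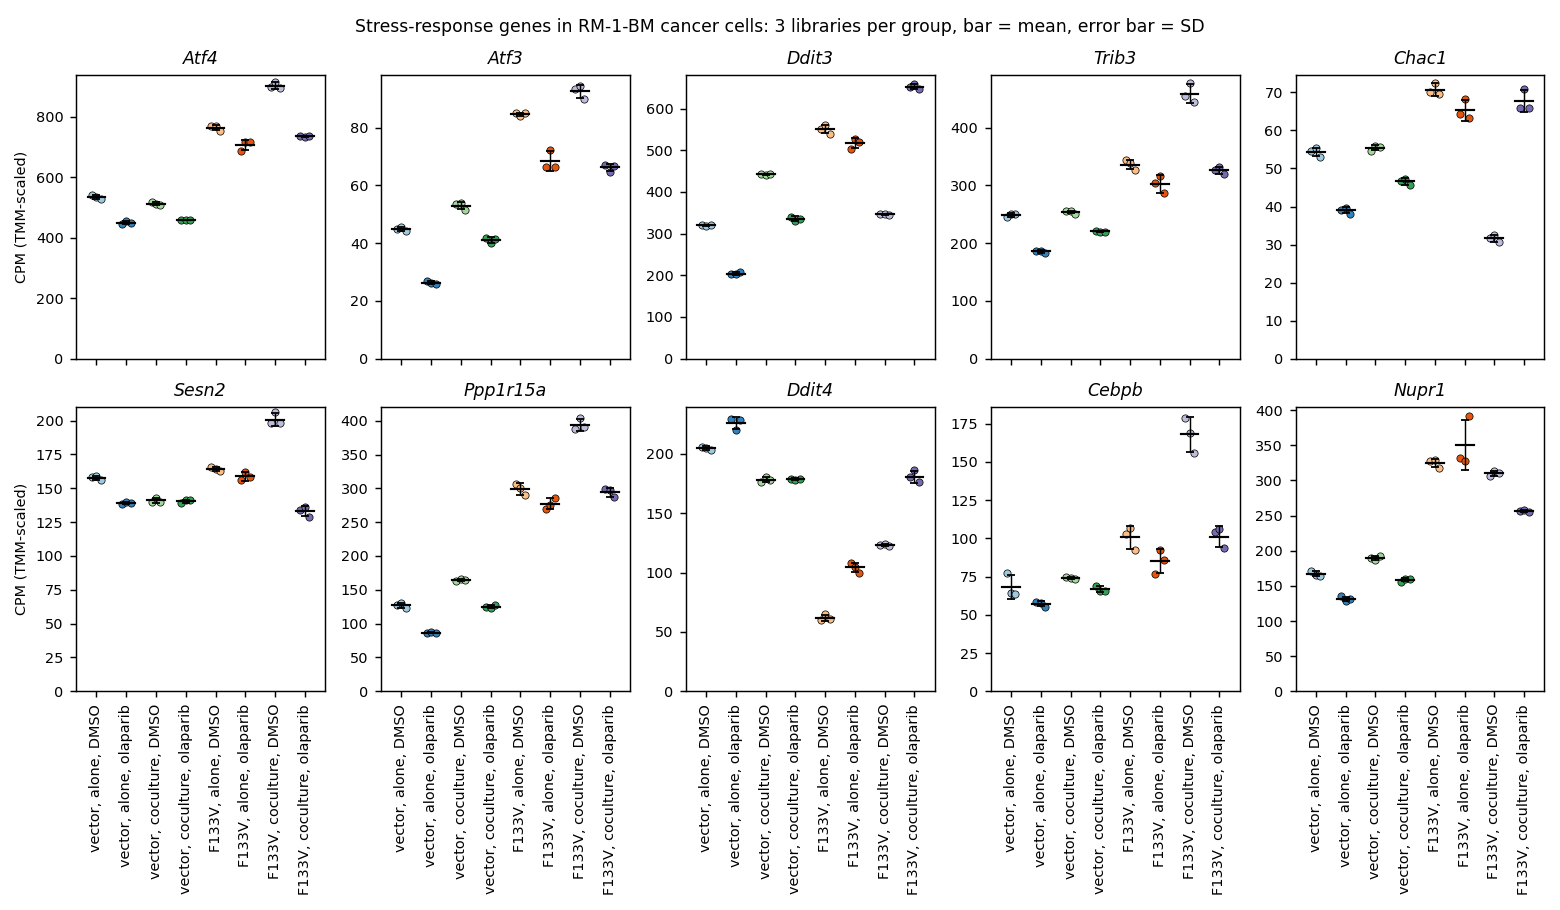
Level of each of the 10 genes (y axis, TMM-scaled CPM, from 0) in the 8 cancer-cell groups (x axis), with a point for each of 3 libraries, a bar for the mean and an error bar for the SD. Of the genes, 6 are highest in F133V cells in coculture with DMSO, the group in which Chac1 is lowest at a mean of 31.7 CPM.

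The first question was how cells with the SPOP mutant differ from vector cells when grown alone. With DMSO, 9 of the 10 members were higher in F133V cells and Ddit4 was lower, at an adjusted p of 0.05 (edgeR's quasi-likelihood F test, adjusted by Benjamini and Hochberg). In the same comparison 67.7% of all tested genes passed, so passing alone sets the members little apart; their median log2 fold change was 0.54, against 0.001 over all genes. Atf4, the transcription factor at the head of the pathway (chromosome 15, 80255184 to 80257541, plus strand, GRCm38), read 541, 534 and 528 CPM in vector cells and 770, 768 and 754 in F133V cells. The 2 groups did not overlap, and the log2 fold change was 0.52 (SE 0.02, adjusted p = 1.1e-23). Ppp1r15a, the phosphatase subunit of the feedback loop (chromosome 7, 45522916 to 45526268, minus strand), read 128, 130 and 123 CPM in vector cells and 307, 300 and 290 in F133V cells. It had the largest rise of the 10, with a log2 fold change of 1.23 (SE 0.03), or 2.35-fold.

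The other transcription factors rose as well. Atf3, a factor of the ATF and CREB family that represses or activates with its partner (chromosome 1, 191170296 to 191218039, minus strand), went from 44.9, 45.5 and 44.1 CPM to 85.0, 84.1 and 85.1, a log2 fold change of 0.92 (SE 0.03). Ddit3, whose product CHOP pairs with other C/EBP proteins and is tied to cell death (chromosome 10, 127290774 to 127296288, plus strand), went from 321, 319 and 320 CPM to 552, 560 and 540, a log2 fold change of 0.78 (SE 0.02). Both genes were tightly measured: the F133V libraries lay above every vector library. Cebpb, a C/EBP factor also active in inflammation (chromosome 2, 167688915 to 167690418, plus strand), read 77.1, 64.0 and 63.6 CPM in vector cells and 103, 107 and 92.5 in F133V cells (log2 fold change 0.56, SE 0.06). Replicate 1 stands above the other vector libraries, yet the groups did not overlap. Nupr1, a small stress-induced nuclear protein (chromosome 7, 126623249 to 126630861, minus strand), had a mean of 167 ± 3.62 CPM (SD, n = 3) in vector and 325 ± 5.99 in F133V cells, a log2 fold change of 0.96 (SE 0.04).

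Among the effectors, Trib3 (chromosome 2, 152337422 to 152344032, minus strand) rose from 248 ± 3.04 to 336 ± 8.4 CPM (SD, n = 3), a log2 fold change of 0.44 (SE 0.03). Chac1, an enzyme that breaks down glutathione (chromosome 2, 119351229 to 119354381, plus strand), read 54.5, 55.3 and 53.1 CPM in vector cells and 70.0, 72.6 and 69.5 in F133V cells, a log2 fold change of 0.38 (SE 0.03). Sesn2, a leucine sensor that restrains mTORC1 (chromosome 4, 132492032 to 132510501, minus strand), differed least, with a log2 fold change of 0.06 (SE 0.02, adjusted p = 0.033). Its call was lost in 9 of 15 alternative analyses, among them DESeq2 (adjusted p = 0.054), the fit without replicates 1 and 2 of the vector group (adjusted p = 0.1) and each fit without vector replicate 1 (0.062) or 3 (0.1) or F133V replicate 1 (0.094) or 2 (0.057); scaled by library size alone it was -0.03.

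Ddit4 stood apart. It encodes REDD1, an inhibitor of mTORC1 that ATF4, hypoxia and glucocorticoids can induce (chromosome 10, 59949669 to 59951834, minus strand). It read 206, 205 and 203 CPM in vector cells and 60.1, 64.9 and 61.1 in F133V cells. The F133V libraries were all far below the vector libraries, at 0.304 of their level (log2 fold change -1.72, SE 0.03, adjusted p = 9.8e-36). It was the largest difference of any member in this comparison.

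With olaparib the same question gave the same directions for all 10 members, 9 higher and Ddit4 lower, where 67.4% of all genes passed. The values for F133V against vector cells were larger for Ppp1r15a (log2 fold change 1.68, SE 0.03), Nupr1 (1.41, SE 0.04), Atf3 (1.37, SE 0.04) and Ddit3 (1.34, SE 0.02) than with DMSO. Ddit3 read 204, 202 and 207 CPM in vector cells with olaparib and 504, 527 and 520 in F133V cells with olaparib. All F133V libraries were well above all vector libraries. The difference between the 2 genotype effects was tested as an interaction, in which 24.2% of all genes passed. It was called for 9 of 10 members, all with a positive value. Cebpb was not called (0.01, SE 0.08, adjusted p = 0.97). The call of Sesn2 (0.13) was lost without the vector libraries that held macrophage transcripts (0.12, adjusted p = 0.051). For Ddit4 the positive value meant a smaller difference between genotypes. Ddit4 was still lower in F133V cells with olaparib (log2 fold change -1.12, SE 0.03), against -1.72 with DMSO.

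In coculture with DMSO, the 10 members split: 7 were higher in F133V than in vector cells and 3 were lower (Ddit3, Chac1 and Ddit4), where 79.5% of all genes passed and the median of all genes was -0.059. Atf4 read 518, 510 and 509 CPM in vector cells and 897, 916 and 894 in F133V cells, its highest group. The log2 fold change was 0.82 (SE 0.02, adjusted p = 1.3e-30). Trib3 went from 255, 255 and 251 CPM to 455, 477 and 444 (log2 fold change 0.86, SE 0.03). Cebpb went from 74.8, 73.8 and 73.4 CPM to 179, 169 and 156 (1.18, SE 0.06), and Ppp1r15a from 164 ± 1.57 to 394 ± 8.51 CPM (SD, n = 3; 1.26, SE 0.03). Atf3 (0.81), Nupr1 (0.71) and Sesn2 (0.51) were also higher; scaled by library size alone, with the median of all genes at -0.31, Nupr1 was 0.45 and Sesn2 0.26.

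The gene for CHOP and the gene for the glutathione-degrading enzyme went the other way. Ddit3 read 443, 440 and 443 CPM in vector cells in coculture with DMSO and 346, 348 and 344 in F133V cells, a log2 fold change of -0.35 (SE 0.02, adjusted p = 3.4e-18). Chac1 read 54.7, 56.0 and 55.7 CPM and 31.7, 32.6 and 30.7, a log2 fold change of -0.81 (SE 0.04, adjusted p = 2.1e-21). In both genes all 3 F133V libraries lay below all 3 vector libraries, while for Atf4, Atf3, Trib3, Ppp1r15a, Cebpb, Sesn2 and Nupr1 they lay above. Both stayed called as lower in all 14 alternative analyses, with Ddit3 between -0.61 and -0.16 and Chac1 between -1.06 and -0.63. The outer values came from scaling by library size alone and from removing trends with gene length and GC content. Small structural RNAs, at 64.3 to 68.4 CPM (unscaled) in the vector and 395 to 422 in the F133V libraries, differed between these groups too, and their part was not tested.

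With olaparib in coculture the split was gone: 8 members were higher in F133V cells, where 60% of all genes passed. Ddit3 was higher again, at 341, 330 and 336 CPM in vector and 651, 659 and 648 in F133V cells, a log2 fold change of 0.96 (SE 0.02, adjusted p = 1.1e-31). Chac1 was higher by 0.54 (SE 0.03). Sesn2 was the 1 member called lower, at -0.07 (SE 0.02, adjusted p = 0.011), a call lost without F133V replicate 3 (-0.04, adjusted p = 0.23). Ddit4 read 179, 178 and 179 CPM in vector and 180, 186 and 176 in F133V cells, so the groups overlapped and no difference was called (0.02, SE 0.03, adjusted p = 0.64).

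**Figure D2:**
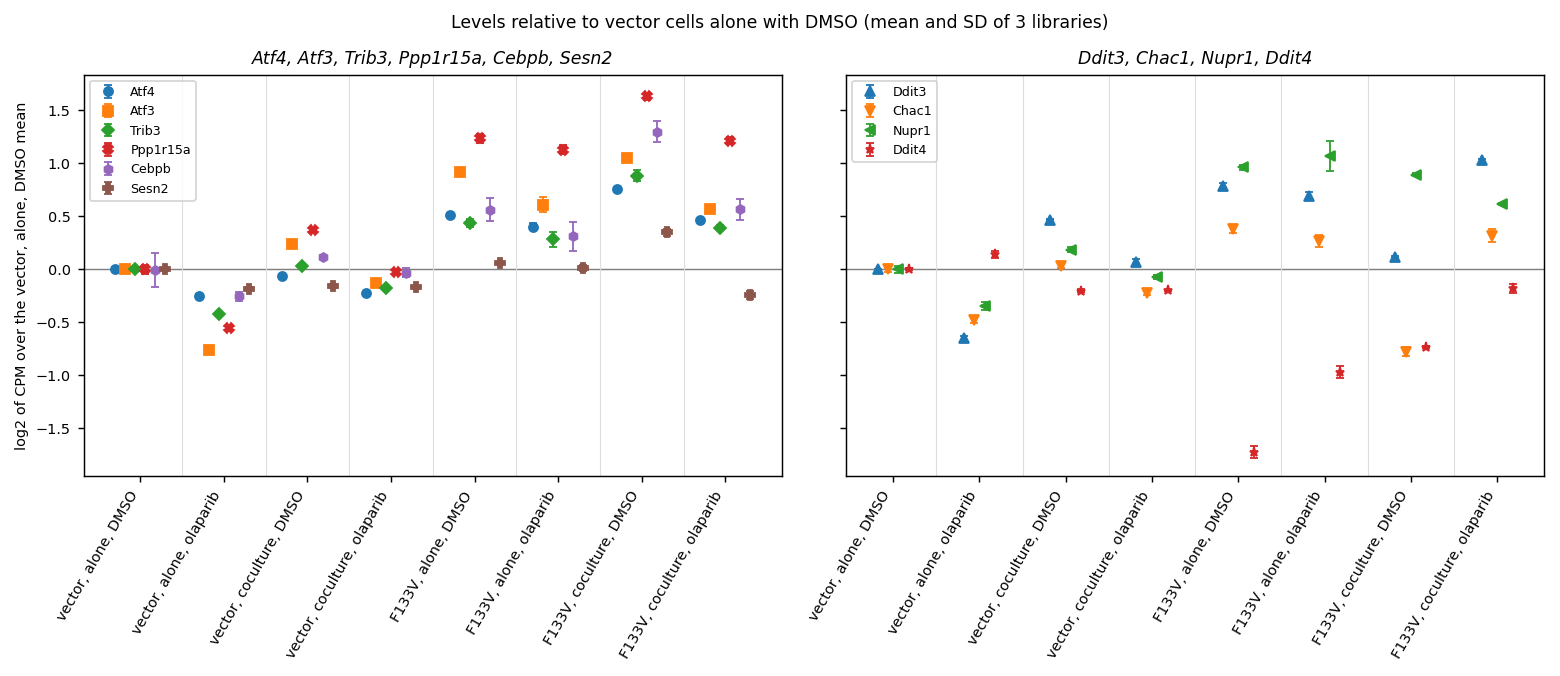
Level of each gene relative to the mean of vector cells alone with DMSO (y axis, log2; mean and SD of 3 libraries) in the 8 cancer-cell groups (x axis). In F133V cells in coculture with DMSO Atf4 is at its highest while Ddit3 and Chac1 stand below their other F133V groups.

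The second question was what olaparib does to these genes. In vector cells alone 9 members fell and Ddit4 rose, where 30.4% of all genes passed, and the median of the members was -0.38 against 0.002 over all genes. Atf3 read 44.9, 45.5 and 44.1 CPM with DMSO and 27.0, 26.2 and 25.9 with olaparib, the largest fall (log2 fold change -0.77, SE 0.04, adjusted p = 7.6e-19). Ddit3 fell by 0.65 (SE 0.02) and Ppp1r15a by 0.56 (SE 0.03) on the log2 scale. Ddit4 read 206, 205 and 203 CPM with DMSO and 229, 220 and 228 with olaparib (0.14, SE 0.03, adjusted p = 2.7e-05). Without the vector libraries that held macrophage transcripts, an analysis chosen after the data were seen, the fall of Cebpb was -0.16 in place of -0.26 and was not called (adjusted p = 0.19); without replicate 1 alone it was -0.16 (adjusted p = 0.048).

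In vector cells in coculture 7 members fell and none rose, where 23.6% of all genes passed. The falls were largest in Ddit3 (-0.4, SE 0.02), Ppp1r15a (-0.39, SE 0.03) and Atf3 (-0.37, SE 0.04). Sesn2 (-0.01), Ddit4 (0) and Cebpb (-0.15, adjusted p = 0.07) were not called. Cebpb passed in 5 of 14 alternatives, among them the replicate block (adjusted p = 0.035) and the fit of the compared groups alone (adjusted p = 4.2e-05).

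In F133V cells alone the responses were small: 7 members were lower with olaparib and 2 higher, where 36.2% of all genes passed. The falls ran from -0.09 (Ddit3) to -0.31 (Atf3) on the log2 scale. Ddit4 was the exception in size: it read 60.1, 64.9 and 61.1 CPM with DMSO and 108, 105 and 100 with olaparib, a log2 fold change of 0.75 (SE 0.03, adjusted p = 9.3e-22). Nupr1 was called higher (0.11, SE 0.04, adjusted p = 0.015), but its libraries read 328, 329 and 318 CPM with DMSO and 332, 328 and 391 with olaparib. Only replicate 3 with olaparib stood out, and without it the difference was 0.02 (adjusted p = 0.53); the call was also lost without DMSO replicate 3 (0.09, adjusted p = 0.069). Scaled by library size alone, 5 of the 10 members were called in place of 9 (2 higher and 3 lower), and Atf4 (-0.04, adjusted p = 0.11), Ddit3 (-0.02, 0.54), Chac1 (-0.04, 0.34) and Ppp1r15a (-0.03, 0.34) were not; the call of Chac1 was also lost without the DMSO replicate 2 (-0.1, adjusted p = 0.054).

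In F133V cells in coculture olaparib moved all 10 members, where 76.3% of all genes passed: Ddit3, Chac1 and Ddit4 rose and the other seven fell. Chac1 read 31.7, 32.6 and 30.7 CPM with DMSO and 66.0, 71.0 and 66.0 with olaparib. This 2.13-fold rise (log2 fold change 1.09, SE 0.04, adjusted p = 6.2e-26) was the largest of the 10. Ddit3 read 346, 348 and 344 CPM with DMSO and 651, 659 and 648 with olaparib (0.92, SE 0.02, adjusted p = 1.6e-31), its highest group. Ddit4 rose by 0.56 (SE 0.03).

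Of the 7 genes that fell, all but Nupr1 fell from their highest group. Cebpb went from 179, 169 and 156 CPM to 104, 106 and 93.4 (log2 fold change -0.73, SE 0.05). Sesn2 went from 198, 206 and 198 CPM to 134, 136 and 129 (-0.59, SE 0.02), from its highest group to its lowest. Trib3 fell by 0.49, Atf3 by 0.48, Ppp1r15a by 0.42, Atf4 by 0.29 and Nupr1 by 0.27 on the log2 scale. Scaled by library size alone, which moves the median of all genes to 0.23, the falls of Atf4 (-0.09), Atf3 (-0.28), Trib3 (-0.28), Sesn2 (-0.38), Ppp1r15a (-0.21) and Nupr1 (-0.07, adjusted p = 0.11) were smaller, and with trends on gene length and GC removed Atf4 was -0.48 and Nupr1 -0.43. The rises of Ddit3 (0.78 to 1.12) and Chac1 (0.93 to 1.3) were called in all 14 alternatives.

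The third question was what the macrophages' presence does to the cancer cells. In vector cells with DMSO 4 members were higher in coculture and 3 lower, where 42% of all genes passed. Ddit3 rose most, from 321, 319 and 320 CPM alone to 443, 440 and 443 in coculture (log2 fold change 0.47, SE 0.02), followed by Ppp1r15a (0.37, SE 0.03), Atf3 (0.24, SE 0.03) and Nupr1 (0.19, SE 0.04). Sesn2 (-0.16), Ddit4 (-0.2) and Atf4 (-0.06, adjusted p = 0.013) were lower. The call of Atf4 was lost in 5 of 15 alternatives, among them the fits without vector replicate 1 alone (-0.05, adjusted p = 0.077) and without the libraries with macrophage transcripts (-0.04, adjusted p = 0.32), while Cebpb (0.12, adjusted p = 0.12) was called without vector replicate 1 (0.21, adjusted p = 0.0038). With olaparib 7 members were higher in coculture and Ddit4 lower, where 44.1% of all genes passed. Ddit3 (0.72, SE 0.02), Atf3 (0.64, SE 0.04) and Ppp1r15a (0.54, SE 0.03) again had the largest values. Chac1 was higher by 0.26 (SE 0.04), while with DMSO it was not called (0.03).

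In F133V cells with DMSO 7 members were higher in coculture and 2 lower, where 70.3% of all genes passed. The 2 that fell were Ddit3 and Chac1. Ddit3 read 552, 560 and 540 CPM alone and 346, 348 and 344 in coculture (log2 fold change -0.67, SE 0.02). Chac1 read 70.0, 72.6 and 69.5 CPM alone and 31.7, 32.6 and 30.7 in coculture (-1.16, SE 0.04). Both groups of libraries were well apart, and the falls were called in all 14 alternatives. Ddit4 rose most, from 62.0 ± 2.51 to 123 ± 0.919 CPM (SD, n = 3; log2 fold change 0.98, SE 0.03), and Cebpb (0.74), Trib3 (0.45), Ppp1r15a (0.4), Sesn2 (0.29), Atf4 (0.24) and Atf3 (0.13) rose. Under library size alone, where the median of all genes is -0.2, Atf4 was 0.03 (adjusted p = 0.18), Trib3 0.24, Ppp1r15a 0.19, Sesn2 0.08 and Atf3 -0.08. The higher and lower members were then 5 and 4. Nupr1 was not called (-0.07, adjusted p = 0.079) but was called lower in 3 of 14 alternatives. These were library size alone (-0.28, adjusted p = 2.3e-08), no filter on low counts (-0.1, 0.00035) and the compared groups alone (-0.11, 5.7e-05). With trends on gene length and GC removed it was 0.06 (adjusted p = 0.15).

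With olaparib, coculture of F133V cells gave 6 higher and 2 lower members, where 53.2% of all genes passed. Ddit4 (0.79, SE 0.03) and Ddit3 (0.34, SE 0.02) rose most, and Nupr1 (-0.45, SE 0.04) and Sesn2 (-0.25, SE 0.02) fell. Chac1 read 64.3, 68.3 and 63.2 CPM alone and 66.0, 71.0 and 66.0 in coculture; the groups overlapped and no difference was called (0.05, SE 0.03, adjusted p = 0.19), though without olaparib replicate 2 of the cells alone it was 0.09 (adjusted p = 0.039). The rises of Atf4 (0.06), Ppp1r15a (0.09) and Trib3 (0.11) were small, and under library size alone they were -0.02, 0.01 and 0.04, none of them called, leaving 3 higher and 3 lower; Atf4 also lost its call without olaparib replicate 1 of the cells alone (0.04, adjusted p = 0.12), and Trib3 was 0.07 without replicate 3.

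The interaction of genotype and coculture with DMSO, in which 62.7% of all genes passed, was negative for Ddit3 (-1.14, SE 0.03), Chac1 (-1.19, SE 0.05) and Nupr1 (-0.26, SE 0.05). It was positive for Ddit4 (1.18, SE 0.04), Cebpb (0.62, SE 0.08), Sesn2 (0.45, SE 0.03), Trib3 (0.42, SE 0.04) and Atf4 (0.3, SE 0.03). Of the 9 members called there, 5 were positive and 4 negative; Atf3 (-0.11, adjusted p = 0.035) was called in 12 of 21 alternatives, and Nupr1 was -0.1 (adjusted p = 0.11) with trends on gene length and GC removed. The interaction of genotype and olaparib in coculture (67.4% of all genes passed) was 1.31 for Ddit3 and 1.34 for Chac1, with 3 members positive and 5 negative; scaled by library size alone, which moves the median of all genes to 0.24, 6 were positive and 2 negative, Atf4 went from -0.13 to 0.07 and Trib3 from -0.29 to -0.08 (adjusted p = 0.052). Atf3 (-0.12) was called in 11 of 20 alternatives. That of culture and olaparib within F133V cells (64.5% passed) was 1.01 and 1.21, with 2 members positive and the other eight negative; scaled by library size alone they were 2 and 5, and Atf4 (-0.05, adjusted p = 0.16), Atf3 (-0.04, 0.45) and Ddit4 (-0.06, 0.23) were not called. These 3 interactions share the F133V coculture group with DMSO, so they are not independent of each other.

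**Figure D3:**
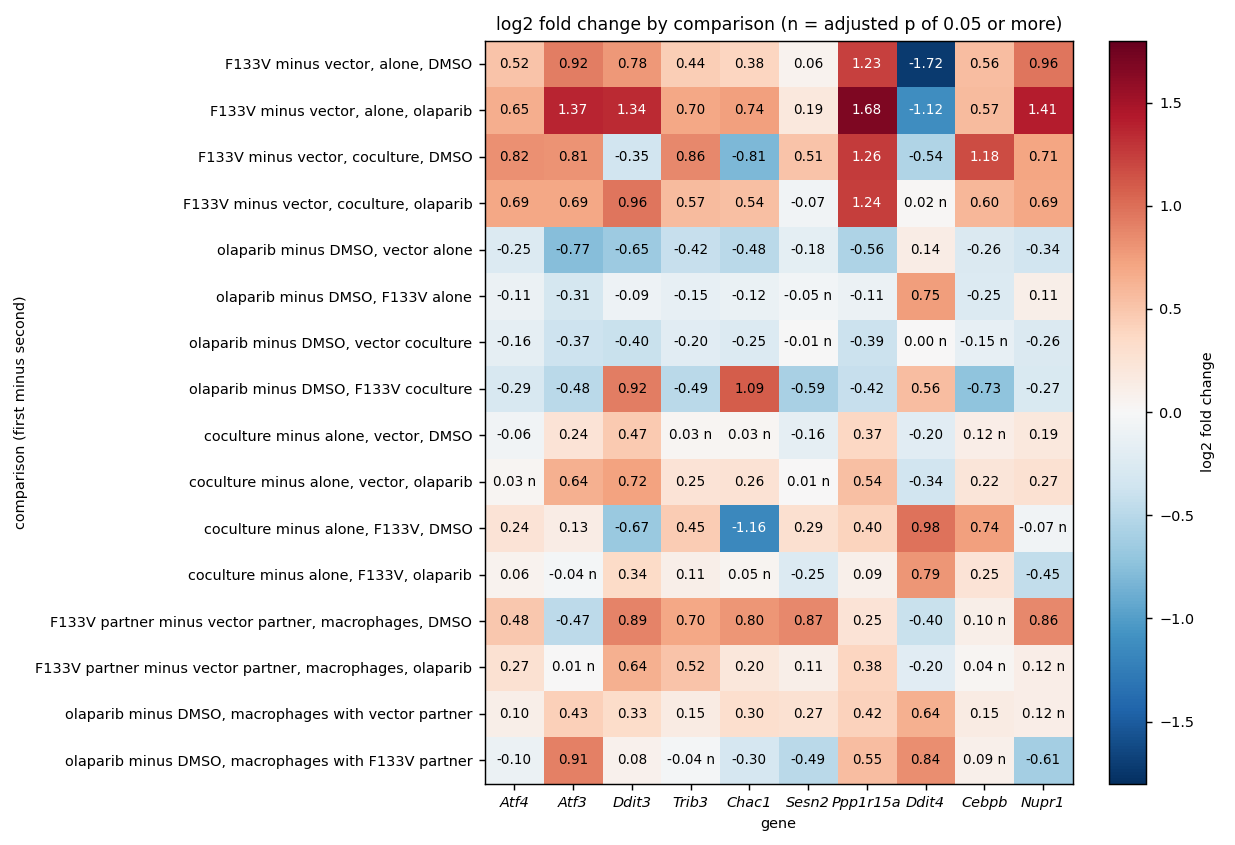
log2 fold change (colour and number) of the 10 genes (x axis) in the 16 comparisons of 2 groups (y axis), where the letter n marks values that did not pass an adjusted p of 0.05. Ddit3 and Chac1 carry the sign opposite to Atf4 and Trib3 in the 3 comparisons of cancer cells that involve F133V cells in coculture with DMSO.

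In the macrophages, the question was whether the genotype of the cells across the membrane, or olaparib, changed the same genes. Opposite F133V cells with DMSO, 7 members were higher and 2 lower than opposite vector cells, where 53.6% of all genes passed; the median of the members was 0.59 against -0.012 over all genes. Ddit3 read 89.8, 91.8 and 92.1 CPM opposite vector cells and 172, 171 and 165 opposite F133V cells (log2 fold change 0.89, SE 0.03, adjusted p = 1.7e-33). Sesn2 read 64.3, 64.4 and 65.8 CPM and 119, 122 and 115 (0.87, SE 0.03). The groups of each gene were apart by far more than their spread. Nupr1 (0.86, SE 0.05), Chac1 (0.8, SE 0.06), Trib3 (0.7, SE 0.02), Atf4 (0.48, SE 0.02) and Ppp1r15a (0.25, SE 0.03) rose as well.

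Atf3 and Ddit4 fell there. Atf3 read 154, 155 and 159 CPM opposite vector cells and 111, 117 and 110 opposite F133V cells (-0.47, SE 0.02, adjusted p = 1.2e-23), and Ddit4 18.7, 18.3 and 16.5 against 12.9, 13.9 and 13.7 (-0.4, SE 0.06). Cebpb read 103, 92.6 and 104 against 126, 106 and 88.7 CPM, with the largest coefficient of variation of any member in any group in the latter (17.7%), and was not called (0.1, SE 0.05, adjusted p = 0.1); its value ran from -0.03 to 0.22 as 1 library at a time was left out, and it was called at 0.22 (adjusted p = 3.8e-06) without F133V-partner replicate 3. With olaparib 6 members were higher and Ddit4 lower opposite F133V cells, where 35.2% of all genes passed. The values of Ddit3 (0.64), Trib3 (0.52), Atf4 (0.27), Chac1 (0.2) and Sesn2 (0.11) were smaller than with DMSO. That of Ppp1r15a was larger, at 0.38 against 0.25. Atf3 read 211, 209 and 211 CPM against 217, 210 and 207, with no call (0.01, SE 0.02). Nupr1 was not called either (0.12, adjusted p = 0.073) but passed without replicate 1 opposite vector cells (0.16, adjusted p = 0.04) or replicate 2 opposite F133V cells (0.15, adjusted p = 0.046).

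Olaparib raised 9 members in macrophages opposite vector cells and lowered none, where 28.4% of all genes passed. Ddit4 (0.64, SE 0.05), Atf3 (0.43, SE 0.02) and Ppp1r15a (0.42, SE 0.03) had the largest values. Under library size alone, with the median of all genes at -0.08, Atf4 (0.02, adjusted p = 0.33) and Cebpb (0.07, adjusted p = 0.27) were not called, and Cebpb also lost its call with DESeq2 (adjusted p = 0.36) and without DMSO replicate 2 (0.1, adjusted p = 0.21) or olaparib replicate 2 (0.14, 0.066) or 3 (0.15, 0.055). Opposite F133V cells, where 57.5% of all genes passed, olaparib raised 4 members and lowered 4. Atf3 read 111, 117 and 110 CPM with DMSO and 217, 210 and 207 with olaparib (0.91, SE 0.02, adjusted p = 2.1e-36), and Ddit4 rose by 0.84 (SE 0.05). Nupr1 (-0.61), Sesn2 (-0.49), Chac1 (-0.3) and Atf4 (-0.1) fell; under library size alone 3 were higher and 5 lower. Atf3, Ddit4, Ppp1r15a (0.42 opposite vector and 0.55 opposite F133V cells) and Ddit3 (0.33 and 0.08) thus rose with olaparib opposite either partner. Opposite F133V cells Ddit3 lost its call under library size alone (0.01, adjusted p = 0.8). The interaction of partner and olaparib, which 49.3% of all genes passed, was positive for Atf3 (0.48), Ddit4 (0.2) and Ppp1r15a (0.13) and negative for 6 members. In it Ddit4 was called in 13 of 20 alternatives and not with DESeq2 (adjusted p = 0.088).

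**Figure D4:**
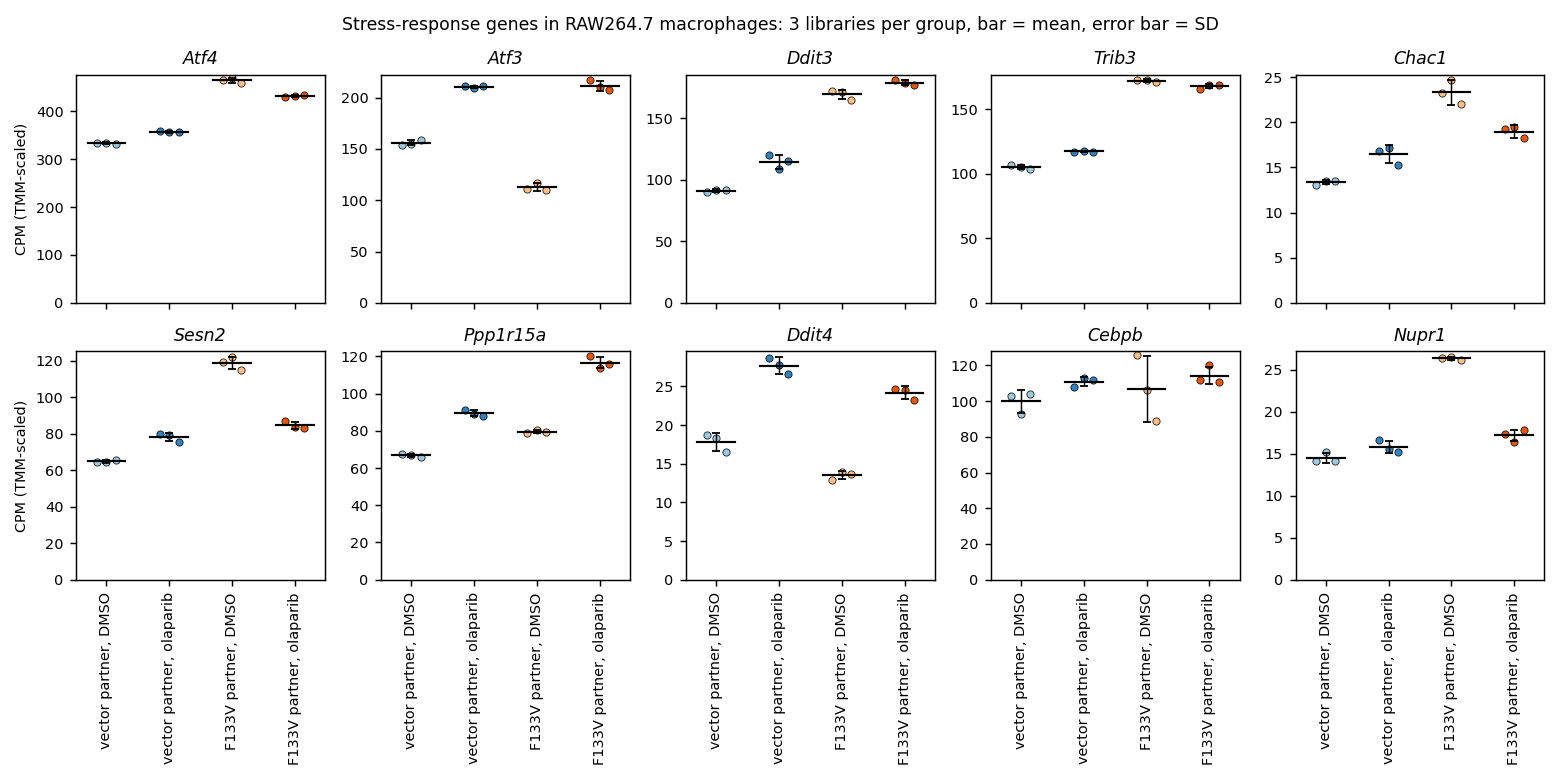
Level of each of the 10 genes (y axis, TMM-scaled CPM, from 0) in the 4 macrophage groups (x axis; partner and treatment), with a point for each of 3 libraries, a bar for the mean and an error bar for the SD. Atf3 is lowest, at a mean of 113 CPM, and Sesn2 and Nupr1 are highest opposite F133V cells with DMSO.

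Per kilobase of exon, the macrophages opposite vector cells with DMSO held Atf4 at 141 CPM per kb, Atf3 at 72.5, Cebpb at 66.4, Ddit3 at 53.3 and Trib3 at 49.7. Ppp1r15a was at 22.7 CPM per kb, Sesn2 at 18.7, Ddit4 at 10.1, Chac1 at 8.16 and Nupr1 at 5.76. The orders differ between cell types: Atf3 was the least abundant member per kb in vector cells alone with DMSO and the second most abundant here. The 2 cell types were scaled separately, so their levels are set side by side without a test.

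Other genes of the pathway were counted from 3 lists, which were chosen with earlier results of these data known. The first holds the 20 genes that set eIF2 phosphorylation and use: the kinases, eIF2 and eIF2B subunits and phosphatase subunits. In F133V against vector cells alone with DMSO 9 of them were higher and 5 lower (median log2 fold change 0.04), 14 of 20 against 67.7% of all genes. Eif2ak3, the gene for PERK, fell from 60.9 ± 1.32 CPM in vector to 36.5 ± 1.09 in F133V cells (SD, n = 3; -0.74, SE 0.04), and Eif2ak4, for GCN2, fell by 0.4 on the log2 scale. Eif2s2, the beta subunit of eIF2, was higher by 0.63. In coculture with DMSO 10 were higher and 9 lower (79.5% of all genes passed), and Ppp1r15b, the constitutive counterpart of Ppp1r15a, rose from 279 CPM in the vector to 717 in the F133V cells (1.36), while Eif2ak2, the gene for PKR, fell from 36 to 15 CPM (-1.27). Olaparib in these F133V cells lowered 12 and raised 7 (76.3% of all genes passed), among them Ppp1r15b (-1.11), Eif2ak3 (0.87, from 33.9 to 62.2 CPM) and Eif2ak2 (1.16). In vector cells coculture raised Eif2ak2 by 0.63 with DMSO and by 0.55 with olaparib.

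The second list holds 48 further targets and partners of ATF4 and CHOP. In F133V against vector cells 26 were higher and 14 lower alone with DMSO (median 0.12; 67.7% of all genes passed), 38 and 6 alone with olaparib (0.26; 67.4%), 32 and 13 in coculture with DMSO (0.27; 79.5%) and 38 and 9 in coculture with olaparib (0.28; 60%). Slc7a11, the cystine transporter, rose from 208 ± 6.76 CPM in vector to 755 ± 13.2 in F133V cells alone with DMSO (SD, n = 3; 1.86, SE 0.03) and from 314 ± 8.74 to 2070 ± 40.8 in coculture (2.72). Its heavy-chain partner Slc3a2 was higher by 1.28 and 1.94. In contrast Pycr1, an enzyme of proline synthesis, was lower in the coculture, at 7.53 CPM in F133V against 31.3 CPM in vector cells (-2.06). Olaparib lowered 37 and raised 6 of the 48 in vector cells alone (30.4% of all genes passed), 36 and 2 in vector cells in coculture (23.6%), 30 and 7 in F133V cells alone (36.2%), and 27 and 18 in F133V cells in coculture (76.3%). In the last group Slc7a11 fell (-1.65 on the log2 scale), as did Gdf15, a secreted stress cytokine (-2.07), while Pycr1 rose (1.58).

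The third list holds genes of the other 2 branches of the unfolded protein response, under ATF6 and XBP1; 28 of its 29 genes were tested. Alone with DMSO 25 were higher and 3 lower in F133V cells (median 0.67; 67.7% of all genes passed), and Hspa5, which encodes the chaperone BiP, was at 2660 ± 33.1 against 1070 ± 5.03 CPM (SD, n = 3; 1.31). In coculture with DMSO 13 were higher and 12 lower (median -0.01; 79.5% of all genes passed), and with olaparib 26 were higher and none lower (0.92; 60%). Olaparib in F133V cells in coculture raised 23 and lowered 5 (76.3% of all genes passed), with Sdf2l1 from 39.1 to 122 CPM (1.63), Dnajc3 from 98.2 to 253 (1.37) and Creld2 from 79.3 to 203 (1.35). Against vector cells of the same culture and treatment, this list stood higher in the 3 F133V groups with high Ddit3. Within F133V cells with DMSO, coculture moved the median of the list by 0.28 while Ddit3 changed by -0.67. In vector cells coculture raised 26 and lowered 2 with DMSO (42% of all genes passed), with Calr, a calcium-binding chaperone, from 617 to 1670 CPM (1.44), and in F133V cells with DMSO it raised 20 and lowered 5 (70.3%).

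In macrophages opposite F133V cells with DMSO 25 of the 28 were higher and none lower (median 0.94; 53.6% of all genes passed), with Pdia4, a protein disulfide isomerase, at 942 ± 6.05 against 289 ± 4.14 CPM (SD, n = 3; 1.7). Of the 45 tested ATF4 and CHOP targets 33 were higher and 7 lower in the same comparison (median 0.46), with Cth, an enzyme of cysteine synthesis, at 39.1 against 11.2 CPM (1.8) and Ero1l, an endoplasmic reticulum oxidase, at 223 against 516 (-1.21). Olaparib opposite F133V cells lowered 24 and raised 3 of the ATF6 and XBP1 list (57.5% of all genes passed), and opposite vector cells raised 22 and lowered 1 (28.4%). Small structural RNAs were at 52.6 to 62.1 CPM (unscaled) in all 4 macrophage groups.

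**Figure D5:**
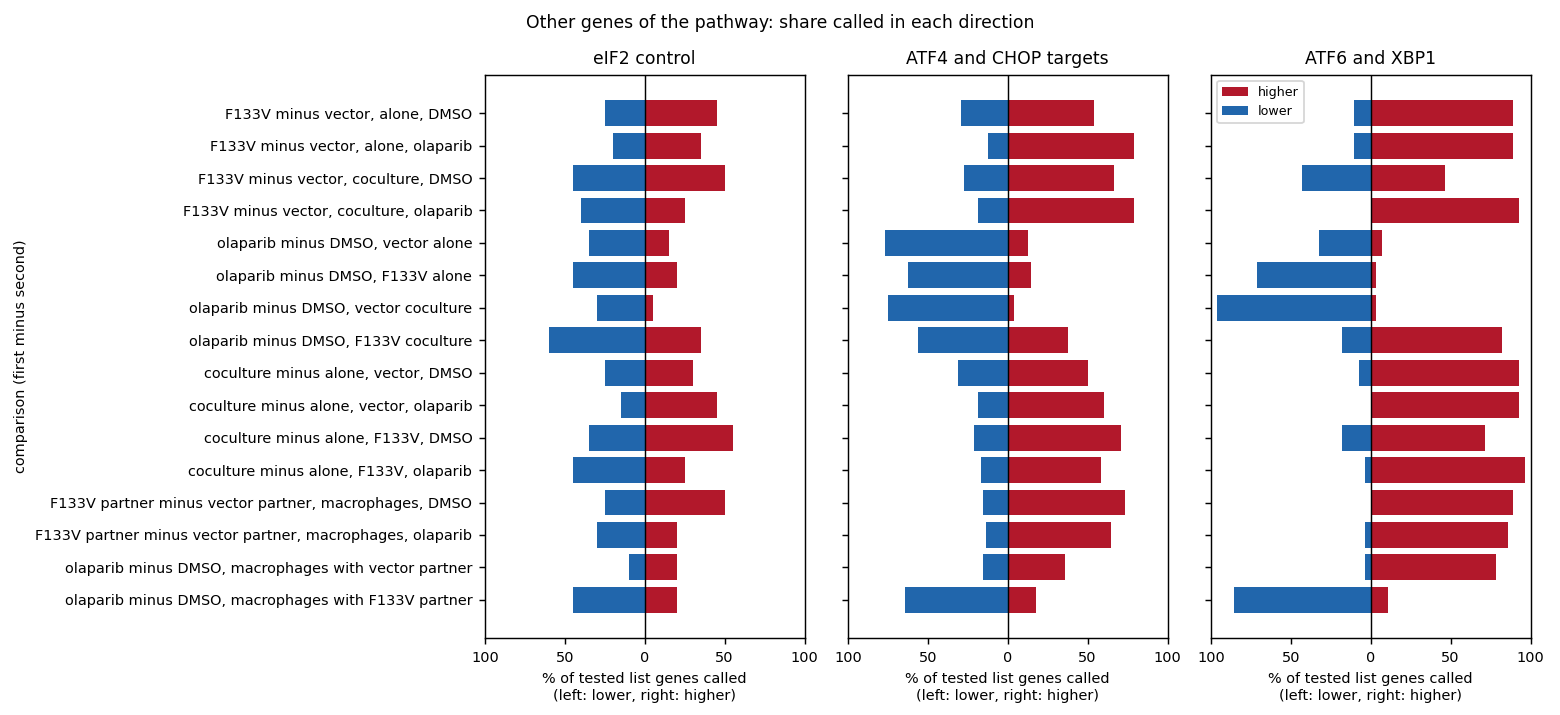
Share of the tested genes of 3 pathway lists (x axis, percent; lower to the left, higher to the right) that passed an adjusted p of 0.05 in each of the 16 comparisons of 2 groups (y axis). For F133V against vector cells in coculture with DMSO, 13 genes of the ATF6 and XBP1 list pass as higher and 12 as lower.

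How closely the members ran together was described over the 8 cancer-cell group means of log2 CPM; these share libraries with every comparison above, and no test is given. Atf4 followed Trib3 and Ppp1r15a most closely (r = 0.97 for each), then Atf3 and Cebpb (0.93 for each), Nupr1 (0.92), Sesn2 (0.68), Ddit3 (0.6) and Chac1 (0.11). Trib3 and Cebpb had the highest r of any pair, 0.98. Chac1 ran with Ddit3 (0.77) and had an r of 0 with Trib3 and -0.41 with Sesn2. Ddit4 had a negative r with all the other nine members, from -0.82 with Nupr1 to -0.37 with Chac1. Among 3743 genes with a range of group means of at least 1 on the log2 scale, those most like Atf4 were Ngdn (0.995), Gata2 (0.992) and Dpf2 (0.989), those most like Trib3 were Nars (0.995), Slc7a1 (0.991) and Btaf1 (0.99), those most like Ddit3 were B4galnt2 (0.983), Rnaset2a (0.982) and Cyb5r1 (0.975), and those most like Chac1 were Rrm2b (0.98), Socs2 (0.968) and Prpsap2 (0.964).

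The order of the 8 cancer-cell groups was also described for each member. For 6 members the extremes were alike, with the lowest mean in vector cells alone with olaparib and the highest in F133V cells in coculture, with DMSO for Atf4, Atf3, Trib3, Ppp1r15a and Cebpb and with olaparib for Ddit3. The range of group means was widest in Ppp1r15a (2.19 on the log2 scale), Ddit4 (1.86) and Atf3 (1.81) and narrowest in Sesn2 (0.59). Neighbouring groups in the order of Atf4 and of Ddit3 did not overlap at any step, from 450 ± 4.95 to 902 ± 12.1 CPM and from 204 ± 2.42 to 653 ± 5.89 (SD, n = 3). For Chac1 the 3 highest groups, F133V alone with DMSO (70.7 ± 1.65), F133V in coculture with olaparib (67.7 ± 2.88) and F133V alone with olaparib (65.3 ± 2.66), overlapped with their neighbours, and vector cells alone and in coculture with DMSO (54.3 ± 1.11 and 55.5 ± 0.679) overlapped too. Its lowest group, F133V in coculture with DMSO (31.7 ± 0.978), lay below all others. For Ddit4 the lowest group was F133V alone with DMSO (62.0 ± 2.51) and the highest vector alone with olaparib (226 ± 4.86), and vector cells in coculture with DMSO or olaparib overlapped with F133V cells in coculture with olaparib.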

How the data were processed

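Total RNA was sequenced on an Illumina platform, per the labels' protocols, in 24 cancer-cell and 12 macrophage libraries. The authors deposited raw read counts per gene, 1 library per table; the submitters' processing notes name STAR, TopHat, HTSeq, DESeq2 and build GRCm38, and neither their versions nor how strand was treated could be read from the labels or headers. Cancer cells and macrophages had separate fits with edgeR 4.0.16 (R 4.3.3): TMM scaling, filterByExpr with a minimum count of 10, the quasi-likelihood F test with Benjamini-Hochberg adjustment over all genes, and calls at an adjusted p of 0.05. In cancer cells 15962 genes were tested over 8 groups (16 residual degrees of freedom), and in macrophages 14262 over 4 groups (8 degrees of freedom). The common coefficient of variation between libraries from edgeR, beyond counting error, was 2.61% in cancer cells and 1.81% in macrophages. There were 16 comparisons of 2 groups and 5 interactions. SE is the absolute log2 fold change divided by the square root of F. No library repeated another of its own group (0 of 24 and 0 of 12 pairs were identical). Alternatives included DESeq2 1.42.0. Figures were drawn with matplotlib 3.10.9. All 10 members are named; of the pathway lists at most 3 genes per list and comparison are named, the called ones with the largest absolute log2 fold change whose higher group averaged 5 CPM or more; of the eIF2 list any could be named, and those described were chosen after their values were seen. The members and lists were chosen with earlier results of these data known. Same-numbered libraries did not deviate together in any comparison: 0 of 16 had every correlation over 0.1.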

Additional observations from a re-analysis of the deposited data

Results flagged for a closer look

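The differences between effects that passed the test of the difference itself (edgeR's quasi-likelihood interaction, on the log2 scale) are given here as values. Between F133V and vector cells grown alone the olaparib effect differed by 0.13 for Atf4, 0.46 for Atf3, 0.56 for Ddit3, 0.26 for Trib3, 0.36 for Chac1, 0.13 for Sesn2, 0.45 for Ppp1r15a, 0.6 for Ddit4 and 0.45 for Nupr1. In coculture it differed by -0.13 for Atf4, -0.12 for Atf3, 1.31 for Ddit3, -0.29 for Trib3, 1.34 for Chac1, -0.58 for Sesn2, 0.55 for Ddit4 and -0.58 for Cebpb; Atf3 kept its call in 11 of 20 alternatives, and Trib3 lost it under library size alone (-0.08, adjusted p = 0.052). The coculture effect with DMSO differed between F133V and vector cells by 0.3 for Atf4, -0.11 for Atf3, -1.14 for Ddit3, 0.42 for Trib3, -1.19 for Chac1, 0.45 for Sesn2, 1.18 for Ddit4, 0.62 for Cebpb and -0.26 for Nupr1.

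Within F133V cells the olaparib effect differed between coculture and growth alone by -0.18 for Atf4, -0.17 for Atf3, 1.01 for Ddit3, -0.34 for Trib3, 1.21 for Chac1, -0.54 for Sesn2, -0.31 for Ppp1r15a, -0.19 for Ddit4, -0.48 for Cebpb and -0.38 for Nupr1. In macrophages it differed between F133V and vector partners by -0.21 for Atf4, 0.48 for Atf3, -0.25 for Ddit3, -0.19 for Trib3, -0.6 for Chac1, -0.76 for Sesn2, 0.13 for Ppp1r15a, 0.2 for Ddit4 and -0.74 for Nupr1.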

How the results depend on the processing

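All 10 members were recomputed in 21 comparisons under 8 alternatives and with 1 library left out at a time. With the replicate block the number of members called for olaparib in F133V cells alone stayed at 9, and 1 member value changed its side of the threshold (Cebpb, olaparib in vector cells in coculture, -0.15, adjusted p = 0.035); 209 others did not. Scaling by library size alone brought the members called for olaparib in F133V cells alone from 9 to 5. The number of all genes called for olaparib in vector cells alone went from 4857 to 2952 without the vector libraries with macrophage transcripts, a choice made after seeing the data that leaves fewer samples. The cause of the changes of sign below was not tested.

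Under library size alone the sign changed for F133V against vector cells in Sesn2 alone with DMSO (-0.03) and Ddit4 in coculture with olaparib (-0.03), for olaparib in F133V cells alone in Sesn2 (0.02), and for coculture in Trib3 and Chac1 of vector cells with DMSO (-0.02 each), Sesn2 of vector cells with olaparib (-0.01), Atf3 of F133V cells with DMSO (-0.08) and Atf4 and Chac1 of F133V cells with olaparib (-0.02 each). It also changed in the interaction of genotype and olaparib in coculture for Atf4 (0.07), Atf3 (0.09), Ppp1r15a (0.18) and Nupr1 (0.19), and in that of genotype and coculture for Ppp1r15a (-0.13). Without a filter, the first of these interactions was 0.01 for Ppp1r15a and 0.03 for Nupr1, the second was -0.01 for Ppp1r15a, and Atf3 by partner with olaparib was 0. Coculture of vector cells with olaparib gave, for Sesn2, -0.01 with RLE scaling, 0 with DESeq2 or the compared groups alone and -0.02 with protein-coding genes or with length and GC trends removed, and, for Atf4, 0 and -0.02 in the last 2. Ddit4 with olaparib in vector cells in coculture was 0 and -0.01 in the same 2. Removing length and GC trends gave 0.06 for Nupr1 on coculture of F133V cells with DMSO, 0.07 for Atf3 in the interaction of genotype and coculture and -0.02 for Cebpb with olaparib in macrophages opposite F133V cells. Without the vector libraries with macrophage transcripts Cebpb was -0.09 in the interaction of genotype and olaparib alone and Ppp1r15a -0.02 in that of genotype and coculture.

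With 1 library left out, values that changed sign ran from -0.09 to 0.08 (Cebpb, genotype by olaparib alone), 0 to 0.01 (Ddit4) and -0.01 to 0 (Sesn2; both olaparib in vector cells in coculture), -0.02 to 0.01 (Nupr1) and -0.04 to 0.01 (Ppp1r15a; both genotype by olaparib in coculture), -0.01 to 0.05 (Ddit4, F133V against vector cells in coculture with olaparib), -0.02 to 0.02 (Atf3, partner with olaparib), -0.03 to 0.22 (Cebpb, partner with DMSO), -0.18 to 0.07 (Cebpb, partner by olaparib) and -0.02 to 0.23 (Cebpb, olaparib opposite F133V cells). None of these 10 was called in the full set of libraries. The lowest count of a member in any library was 411. Whether counting error or the spread between libraries limits the precision was not tested.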
